A study of Mus musculus with 15 samples.

Results

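RNA sequencing of mouse testis was used here to compare the vector control group, MNC, with the control group, Con, 3 libraries each and thus 6 of the 15 libraries of the series. The comparison was chosen by its groups: all 3 MNC and all 3 Con libraries entered, over the 14514 genes whose mean FPKM over the 15 libraries was 1 or more. FPKM counts the fragments that fall on a gene, adjusted for gene length and for how many fragments were mapped in that library. Every library came from testis of ICR mice, an outbred stock, so that mice of a group are not genetically identical. Per the study's methods, MNC testes were injected at 5 weeks of age with a lentivirus carrying the control hairpin shNC, and testes were collected 10 days later. Con is labelled only as control; neither the labels nor the methods say whether it was injected with anything or at what age its mice were killed. The remaining 9 libraries, 3 each, came from testes injected with lentivirus against the muscarinic acetylcholine receptors M1, M3 or M5, and they enter below only as levels. The comparison asks what the control virus, the injection and the days after it go along with in the testis, with no receptor targeted, and it cannot separate the virus from the injection. Since the age of the Con mice at collection is unknown, a difference in age cannot be told apart from either. The labels do not say whether the replicates were separate animals, so the p-values measure only the spread between these libraries.

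As background, the testis is an organ in which immune responses are kept low. Germ cells divide, pass through meiosis as spermatocytes, become round spermatids that build the acrosome, and then elongate while protamines replace histones on their DNA. Sertoli cells feed them and form the blood-testis barrier, Leydig cells make testosterone, and macrophages are the main immune cells between the tubules. When a cell senses foreign nucleic acid it can release type I interferons, and T cells and natural killer cells release interferon-gamma. Both act through transcription factors, among them IRF proteins, which switch on genes by binding repeats of GAAA in promoters.

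Since interferon-related genes made up the clearest group of differences, the repeats in their promoters are shown before the values. RefSeq promoters of the assembly GRCm38.p6, from 250 bases before to 50 bases after the start, were searched on both strands for GAAA, any 2 bases and GAAA again, which reads as TTTC, 2 bases and TTTC from the other strand. Capitals mark every match, and matches that overlap run together. The windows below, from 5′ to 3′ on the strand of the gene, were chosen to show genes called higher in MNC from each group of interferon-related genes described next.
Ifit3, chr19:34583358-34583431, + strand: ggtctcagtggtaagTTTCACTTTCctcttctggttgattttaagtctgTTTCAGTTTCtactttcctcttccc
Isg15, chr4:156200860-156200911, - strand: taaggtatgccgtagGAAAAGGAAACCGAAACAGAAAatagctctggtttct
Oas1a, chr5:120907526-120907560, - strand: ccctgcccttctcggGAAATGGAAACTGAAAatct
Irgm1, chr11:48871421-48871465, - strand: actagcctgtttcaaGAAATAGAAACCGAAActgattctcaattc
Gbp2, chr3:142620589-142620628, + strand: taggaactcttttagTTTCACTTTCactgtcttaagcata
Tgtp2, chr11:49064258-49064297, - strand: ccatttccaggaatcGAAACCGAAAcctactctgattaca
H2-T22, chr17:36042909-36042948, - strand: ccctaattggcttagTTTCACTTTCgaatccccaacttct
B2m, chr2:122147533-122147572, + strand: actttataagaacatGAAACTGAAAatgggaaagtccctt
The motif was found in 380 of the 10940 tested genes with a promoter in the table (3.47%). It was found in 8 of 16 interferon-stimulated genes, 9 of 10 interferon-gamma-induced GTPases and partners and 5 of 18 genes of class I antigen presentation. Among genes called higher in MNC in both scalings described below, 50 of 849 promoters held it (5.89%), and among those called lower 5 of 321 did (1.56%). The 50 include list members such as Ifit3, Gbp2 and B2m, so this share partly repeats the counts of those lists. The share without these lists was not computed. Of the 20 promoters each of round and of elongating spermatid markers, 0 held it. A match is a run of letters, not a measured binding site, and its absence from these windows says nothing about binding elsewhere. Socs1, whose promoter also holds a match, was at 5.19, 4.54 and 4.15 FPKM in Con and 2.89, 3.75 and 4.73 in MNC, and was not called (limma adjusted p = 0.272).

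The 6 libraries were alike in the number of genes listed. From 20645 to 20832 genes had a value above 0 in each. Depth relative to the other libraries, read from the lowest values of genes, ranged from 0.972 to 1.00. That measure used only values close to the lowest value of each gene, which holds it near 1. It therefore cannot show whether depths were alike. Absolute depth is unknown, so that no counting error can be given. Summed FPKM was 470243 to 483232 in Con and 500456 to 505654 in MNC, while the median of log2(FPKM + 1) was 3.33 to 3.41 in Con and 3.25 to 3.32 in MNC. The MNC libraries thus had a higher total and a lower median, and for this reason each fit was run on the values as deposited and again after centring each library on its median. The mean absolute log2 difference between libraries was 0.138 to 0.184 within Con, 0.183 to 0.244 within MNC and 0.249 to 0.328 between the groups. By this measure every pair across the groups differed more than every pair within a group. The standard deviation of the centred difference did not separate them, with 0.435 for MNC replicates 1 and 3 and 0.385 for Con replicate 3 and MNC replicate 2.

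On the values as deposited, 1166 genes were called higher in MNC and 1801 were called lower by limma at an adjusted p under 0.05, or 8.03% and 12.4% of the genes tested. After centring it called 1449 higher (9.98%) and 420 lower (2.89%). The number of genes called in both scalings was 1109 higher (7.64%) and 420 lower (2.89%), and 0 genes were called in opposite directions. The share of calls that were higher was therefore 39.3% as deposited and 77.5% after centring, and the median log2 difference over all genes was -0.10 and -0.01. Large differences were mostly increases in both scalings: 145 genes called in both were higher by 1 or more on the log2(FPKM + 1) scale, and 22 were lower by as much. This scale understates the change of genes with low values. In every called gene the 3 MNC values lay on 1 side of the 3 Con values.

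These counts changed widely when single libraries were left out, most of all Con replicate 1. The fits with a library left out have smaller samples, and their median log2 difference over all genes stayed between -0.12 and -0.07 as deposited. With Con replicate 1 left out, limma called 5 genes higher and 3 lower as deposited, and 1592 and 2609 genes still had an unadjusted p under 0.05. Counts of list members in that setting, given below, stand beside these counts over all genes. The total was 195 without Con replicate 2, 638 without MNC replicate 2, 1032 without MNC replicate 3, 1343 without Con replicate 3 and 2497 without MNC replicate 1, against 2967 with all 6. The plot of genes called without each library shows the fewest calls without Con replicate 1 in both scalings. The order of the other libraries partly differed after centring, with 397 calls without MNC replicate 3 and 603 without MNC replicate 2. In each of these settings a larger share of the calls was higher after centring than as deposited. For each group of genes below, the values in every library are therefore given beside the calls. Since 12 of the 15 libraries were injected, a gene near 0 in Con could pass the filter on mean FPKM through the injected libraries alone. Counts and medians over the tested members of the immune lists are thus descriptions, and the median over all members in the table is given beside them.

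**Figure D1:**
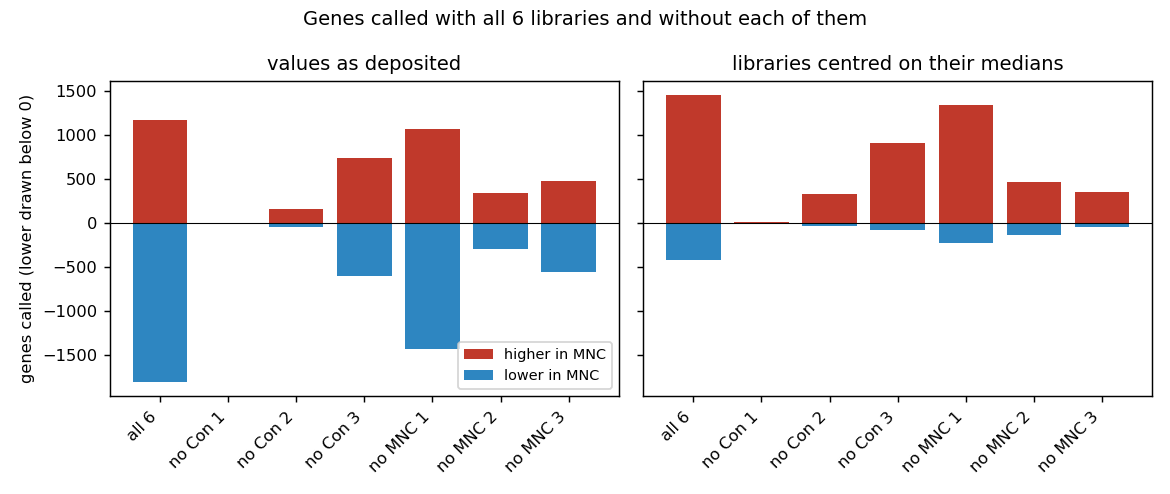
Number of genes called by limma at an adjusted p under 0.05 with all 6 libraries and with 1 library left out, as deposited (left) and with libraries centred on their medians (right). Bars above 0 are genes higher in MNC and bars below 0 are genes lower in MNC; the bars nearly vanish without Con replicate 1, with 8 genes as deposited and 12 after centring.

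Interferon-induced GTPases were increased in MNC testis. This list held 18 genes that interferon-gamma induces most strongly, GTPases of the Gbp and Irg families that attack membranes around intracellular microbes, with the factor Irf1 and a few partners. Of the 14 tested, 12 rose (85.7%, against 8.03% and 9.98% of all genes) and 0 fell in both scalings. The median log2 difference was 1.35 as deposited and 1.44 after centring, and 1.29 over all 17 members in the table. Iigp1, the founding member of the Irg family, was at 1.34, 1.04 and 1.06 FPKM in Con and at 19.1, 12.2 and 12.9 in MNC. Its rise on the log2 scale was 2.85 (SE 0.17, limma adjusted p = 0.00434), and its lowest MNC value was far above its highest Con value. Gbp4 was at 0.73, 0.58 and 0.87 FPKM in Con and 5.58, 3.97 and 6.42 in MNC, a rise of 1.86 (SE 0.16, limma adjusted p = 0.0107). Irgm1, a regulator of the other Irg proteins, went from 1.47, 1.55 and 1.8 to 10.1, 6.69 and 6.45 FPKM (log2 difference 1.73, SE 0.17). MNC replicate 1 was the highest library for Iigp1 and Irgm1, while MNC replicate 3 was the highest for Gbp4 and Gbp2. Irf1, the transcription factor that interferon-gamma induces, was at 2.23, 2.39 and 1.82 FPKM in Con and 6.71, 4.71 and 5.79 in MNC (log2 difference 1.09). Tgtp1 and Tgtp2 are near-identical copies whose reads the counting could split; Tgtp2 was called and Tgtp1 was not, with 0.4, 0.24 and 0.3 FPKM in Con and 0.29, 2.58 and 2.1 in MNC. If Con replicate 1 was omitted, 1 of the 14 was still called and 12 had groups that did not overlap, beside 2415 of 14514 genes that were higher without overlap in that setting.

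The wider list of interferon-stimulated genes moved the same way with smaller differences. Of 33 genes listed, 21 were tested, 12 rose as deposited (57.1%) and 13 after centring (61.9%), and 0 fell. Of all genes, 8.03% and 9.98% rose. The median log2 difference of the list was 0.89 and 0.98, and 0.735 over all 31 members in the table. The largest rise was that of Irf7, the factor that amplifies type I interferon, at 1.67, 1.36 and 1.39 FPKM in Con and 12.1, 8.28 and 5.87 in MNC (log2 difference 1.93, SE 0.23, limma adjusted p = 0.0162). Zbp1, a sensor of left-handed nucleic acid, was at 0.76, 0.35 and 0.38 in Con and 6.5, 3.39 and 2.82 in MNC (log2 difference 1.75). Ifit3, whose protein acts against viral RNA, was at 0.86, 0.78 and 1.02 FPKM in Con and 6.28, 4.43 and 2.79 in MNC (log2 difference 1.495, SE 0.23). In all 3 genes MNC replicate 1 was the highest and MNC replicate 3 the lowest of the MNC libraries, and no MNC value reached down to a Con value. Isg15, a ubiquitin-like modifier, was at 1.1, 1.62 and 0.98 in Con and 5.24, 3.87 and 2.38 in MNC (log2 difference 1.08), and Ifitm3, which blocks virus entry, at 12.2, 13.96 and 13.6 in Con against 43.02, 28.4 and 25.7 in MNC (log2 difference 1.19). The lowest of the list was Herc6, at 9.9, 11.1 and 9.51 FPKM in Con and 11.1, 9.93 and 9.14 in MNC, where the groups overlapped. The 10 members in the table but below the filter on mean FPKM also had higher values in every MNC library than in every Con library. Ifit1, for example, was at 0.18, 0.21 and 0.27 in Con and 2.35, 1.32 and 0.72 in MNC. Of all 14514 genes tested, 2172 were likewise higher without overlap as deposited. The share among genes below the filter was not computed. Summed over the list, FPKM was 68.8 to 77.0 in Con and 119 to 220 in MNC, highest in MNC replicate 1. When Con replicate 1 was left out, limma called 0 of the 21 while 15 had an unadjusted p under 0.05, and without Con replicate 2 it also called 0; the median was 0.87 and 0.90.

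The interferons and their receptors gave a different picture. Of 28 sensors and signalling genes listed, 21 were tested, and 4 rose as deposited (19.0%) and 6 after centring (28.6%). Of all genes, 8.03% and 9.98% rose. The median of the list was -0.00 and 0.09, against -0.10 and -0.01 over all genes. Irf7, Stat2 and Ddx58, which rose, are themselves interferon-inducible. Ddx58, a sensor of viral RNA, was at 1.63, 1.71 and 1.58 FPKM in Con and 2.67, 2.29 and 2.3 in MNC (log2 difference 0.37, SE 0.08, limma adjusted p = 0.0326). Stat2, which carries the signal of type I interferon to the nucleus, was at 2.55, 2.79 and 2.36 in Con against 7.06, 5.17 and 5.19 in MNC (log2 difference 0.92). The 4 receptor subunits were not called, and Ifngr1, for example, was at 8.38, 8.4 and 7.82 FPKM in Con and 8.58, 6.94 and 6.7 in MNC. Of the ligands, Ifnb1 and Ifna4 were listed at 0 in all 6 libraries, whereas Ifng was listed at 0 in Con and at 0.32, 0.15 and 0.23 FPKM in MNC. At levels this low, presence in the injected libraries is a listing rather than a tested difference.

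**Figure D2:**
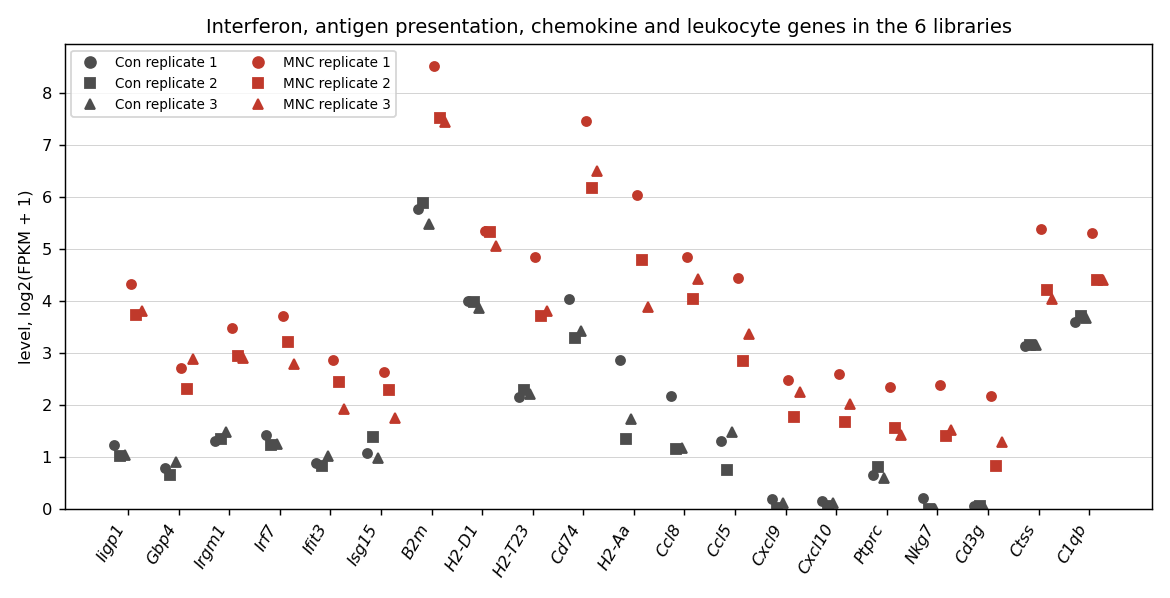
Levels of 20 interferon, antigen presentation, chemokine and leukocyte genes as log2(FPKM + 1), with grey symbols for the 3 Con libraries and red symbols for the 3 MNC libraries. For each gene every MNC symbol lies above every Con symbol, and MNC replicate 1 (red circle) is the highest for most genes. These genes were picked from lists with other members whose groups overlapped, such as Csf1r, Cd3d and H2-K1. The separation in every gene is therefore partly a result of that choice.

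Genes of antigen presentation were increased in part. Class I molecules show peptides from inside the cell to T cells, and class II molecules show peptides taken up by antigen-presenting cells. B2m, the light chain of all class I molecules, was at 53.5, 57.9 and 43.7 FPKM in Con and 364, 181 and 171 in MNC, a log2 difference of 2.11 (SE 0.30, limma adjusted p = 0.0175). H2-T23, a nonclassical heavy chain read by natural killer cells, was at 3.45, 3.91 and 3.63 in Con and 27.9, 12.2 and 12.9 in MNC (log2 difference 1.903). Psmb8, a proteasome subunit made under interferon, was at 0.97, 0.44 and 0.61 FPKM in Con and 8.21, 4.85 and 3.32 in MNC (log2 difference 1.89, SE 0.28). For each of the 3 the lowest MNC value was above the highest Con value. Of 21 class I genes tested, 7 rose in both scalings (33.3%, against 8.03% and 9.98% of all genes). Among them was Nlrc5, the activator of class I genes, at 1.06, 1.83 and 1.68 in Con and 6.14, 4.51 and 4.25 in MNC. The median was 0.83 as deposited and 0.92 after centring, but 0.38 without MNC replicate 1, the library in which most of these genes were highest. Calr, a chaperone of the endoplasmic reticulum with many other clients, fell by 0.26 as deposited and was not called after centring (limma adjusted p = 0.0537). Other members were set by single libraries: H2-Q4 was at 4.03, 4.22 and 3.74 in Con and 31.1, 6.77 and 4.34 in MNC, and H2-K1 at 11.03, 21.1 and 9.2 in Con against 16.5, 19.03 and 47.1 in MNC. Heavy chain genes are near-identical copies that also differ between strains, so that values of single H2 genes in outbred mice are uncertain. Tap1, a peptide transporter gene, varied within Con itself, at 1.52, 0.25 and 0.09 FPKM against 4.37, 0.86 and 0.46 in MNC. With Con replicate 1 removed, limma called 0 of the 21, and 8 higher and 1 lower had an unadjusted p under 0.05.

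Class II transcripts rose in part. Of 10 listed, 5 were tested, 3 rose and 0 fell in both scalings. The median was 2.39 as deposited and 2.48 after centring over these 5, but 0.499 over all 10 with no filter, below that of the interferon-induced GTPases. Cd74, the invariant chain that guides class II molecules, was at 15.4, 8.74 and 9.75 FPKM in Con and 174, 70.5 and 89.7 in MNC (log2 difference 3.12, SE 0.36, limma adjusted p = 0.0158). H2-Aa, an alpha chain, was at 6.26, 1.56 and 2.32 FPKM in Con and 64.2, 26.6 and 13.7 in MNC (log2 difference 2.91, SE 0.62), and H2-Ab1, its beta chain, at 4.62, 2.13 and 1.89 in Con against 39.2, 14.7 and 10.6 in MNC. MNC replicate 1 was the highest library of all 3 genes, and Con replicate 1 was the highest of the Con libraries. H2-DMb1, a peptide editor, overlapped between the groups, with 2.62, 0.21 and 0.25 FPKM in Con and 6.68, 1.48 and 0.64 in MNC. In the other injected groups Cd74 was at 82.2, 166 and 55.1 FPKM in M1, 45.2, 86.97 and 54.2 in M3 and 94.7, 125 and 171 in M5. Ciita, the activator of class II genes, lay below the filter with 0.06, 0.04 and 0.02 FPKM in Con and 0.7, 0.32 and 0.53 in MNC. Without Con replicate 1, limma called 0 of the 5, and 3 had an unadjusted p under 0.05.

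Chemokines, the secreted proteins that draw leukocytes into tissue, rose in part. Of 11 tested, 7 rose (63.6%, against 8.03% and 9.98% of all genes) and 0 fell in both scalings. Their median was 1.11 and 1.20. Over all 20 members in the table the median was 0.457, and Cxcl9, Cxcl10 and others passed the filter only through the injected libraries. Ccl8, a ligand for monocytes and T cells, was at 3.54, 1.23 and 1.27 FPKM in Con and 27.8, 15.4 and 20.4 in MNC (log2 difference 2.93, SE 0.33, limma adjusted p = 0.0158). Ccl5, made by T cells among others, was at 1.47, 0.68 and 1.79 FPKM in Con against 20.8, 6.15 and 9.34 in MNC (log2 difference 2.37). Cxcl9 and Cxcl10, which interferon-gamma induces and which draw activated T cells, were nearly absent from Con. Cxcl9 was at 0.15, 0.01 and 0.08 FPKM in Con and 4.56, 2.4 and 3.77 in MNC, and Cxcl10 at 0.11, 0.04 and 0.08 in Con against 5.02, 2.19 and 3.03 in MNC, both without overlap. The monocyte ligands Ccl2, Ccl7 and Ccl12 rose by 1.09, 1.11 and 1.51. Cxcl12, which many stromal cells make all the time, was the lowest of the list, at 8.79, 12.4 and 8.26 FPKM in Con and 6.68, 8.53 and 6.27 in MNC, and was not called. Cxcl1 and Cxcl2, which draw neutrophils, were below the filter, with at most 0.46 FPKM in any of the 6 libraries. If Con replicate 1 was omitted, 1 of the 11 was called and 7 had an unadjusted p under 0.05.

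Transcripts that mark T cells and natural killer cells were higher in MNC. Of 11 lymphocyte markers tested, 8 rose (72.7%, against 8.03% and 9.98% of all genes) and 0 fell in both scalings. The median of the 11 was 0.98 and 1.07. Most of them were below 1 FPKM in Con and passed the filter through the injected libraries, and over all 23 members the median was 0.55; with a mean FPKM of 5 or more, 2 markers were left with a median of 0.25. Nkg7, found in the granules of killer cells, was at 0.16, 0 and 0 FPKM in Con and 4.24, 1.66 and 1.88 in MNC (log2 difference 1.704, SE 0.26, limma adjusted p = 0.0192). Cd3g, a chain of the T cell receptor complex, was at 0.04, 0.04 and 0 in Con and 3.52, 0.77 and 1.44 in MNC (log2 difference 1.39). Ptprc, the CD45 molecule of leukocytes in general, was at 0.58, 0.76 and 0.51 FPKM in Con against 4.06, 1.96 and 1.7 in MNC. All 3 were lower than 1 FPKM in Con and did not overlap, with MNC replicate 1 on top. Cd8a, below the filter, was at 0.04, 0.05 and 0.05 in Con and 1.73, 0.64 and 0.74 in MNC. Cd3d, the least changed member, was at 7.88, 6.82 and 7.4 in Con against 7.25, 7.45 and 7.48 in MNC, a level well above that of its partner chain Cd3g. The B cell markers Cd79a and Ms4a1 stayed at or below 0.26 FPKM in all 6 libraries. In whole tissue, more cells of a type and more RNA per cell cannot be told apart. Summed over the lymphocyte list FPKM was 15.1 to 36.2 in Con and 32.8 to 66.2 in MNC, so these sums overlapped; Cd52, at 24.1, 3.21 and 8.83 in Con and 25.9, 10.3 and 8.68 in MNC, set much of them. Lymphocyte transcripts moved together with the interferon and antigen presentation groups, and their part in those results was not tested. When Con replicate 1 was left out, limma called 0 of the 11 and 8 had an unadjusted p under 0.05.

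Macrophage markers rose in smaller number. Of 17 tested, 4 rose (23.5%, against 8.03% and 9.98% of all genes) and 0 fell in both scalings. The median of the 17 was 0.48 and 0.57. Ctss, a protease that cuts the invariant chain, was at 7.77, 7.95 and 7.9 FPKM in Con and 40.6, 17.6 and 15.3 in MNC (log2 difference 1.39, SE 0.34, limma adjusted p = 0.0378). C1qb, a complement chain that macrophages make, was at 11.02, 12.1 and 11.7 in Con against 38.3, 20.2 and 20.2 in MNC (log2 difference 1.05). Csf1r and Mrc1 were among the members not called. Csf1r, the growth factor receptor of all macrophages, was at 5.09, 5.86 and 4.17 FPKM in Con and 9.05, 4.26 and 4.68 in MNC with overlap, and Mrc1, the lowest of the list, at 9.2, 9.43 and 8.72 in Con against 9.1, 7.3 and 6.34 in MNC. Aif1 was called at 228, 203 and 257 FPKM in Con against 314, 328 and 326 in MNC, levels far above those of the other macrophage markers in every library. The neutrophil marker Ly6g was listed at 0 in all 6 libraries, S100a8 and S100a9 stayed at or below 0.26 FPKM, and of the 2 neutrophil genes tested 0 were called by limma and 1 had an unadjusted p under 0.05. That gene, Lcn2, was at 74.1, 118 and 207 FPKM in Con and 312, 213 and 247 in MNC. With Con replicate 1 removed, limma called 0 of the 17 macrophage markers, and 5 had an unadjusted p under 0.05; it also called 0 without Con replicate 2, MNC replicate 2 or MNC replicate 3.

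Among germ cell genes, markers of elongating spermatids were increased. Of 24 tested, 15 rose as deposited (62.5%), 13 rose after centring (54.2%) and 0 fell, against 8.03% and 9.98% higher of all genes. The median was 0.54 and 0.63, and 0.34 with quantile normalization. Smcp, a protein of the capsule around sperm mitochondria, was at 979.6, 827 and 1292 FPKM in Con and 2144, 2407 and 2251 in MNC (log2 difference 1.16, SE 0.16, limma adjusted p = 0.0173). Odf1, a part of the outer dense fibres of the tail, was at 680.0, 545 and 861 FPKM in Con against 1265, 1392 and 1330.1 in MNC (log2 difference 0.96). Gapdhs, the glycolytic enzyme of the sperm tail, was at 611, 467 and 721 in Con against 949, 1078 and 1032 in MNC (log2 difference 0.79). All 3 were lowest in Con replicate 2 and highest in MNC replicate 2, and no Con value reached an MNC value. Akap3, an anchor of the fibrous sheath, differed less but with less spread, at 287, 289 and 291 FPKM in Con and 350.2, 363 and 362 in MNC (log2 difference 0.31, SE 0.04, limma adjusted p = 0.0164). The most abundant members were not called. Prm2, a protamine, was at 3060.0, 1915 and 4656 FPKM in Con and 5486, 6948 and 6811 in MNC (limma adjusted p = 0.0544). The groups overlapped for Prm1, the other protamine, at 4559, 2951 and 5954 FPKM in Con against 5636, 7258 and 7699 in MNC. They also overlapped for the transition protein gene Tnp1, at 2443, 1666 and 3293 against 3256, 3795 and 4014. Cylc1, a protein of the sperm head, was the lowest member with 50.8, 49.2 and 52.5 in Con against 42.97, 51.8 and 52.5 in MNC. Summed over the list, FPKM was 16961 to 29008 in Con and 32161 to 38834 in MNC, so these 24 genes alone took a larger part of the total in each MNC library than in any Con library. Without Con replicate 1, limma called 0 of the 24, and the median was 0.52. There 18 were higher at an unadjusted p under 0.05, beside 1592 of all 14514 genes. Without Con replicate 2 limma called 4, with a median of 0.38.

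**Figure D3:**
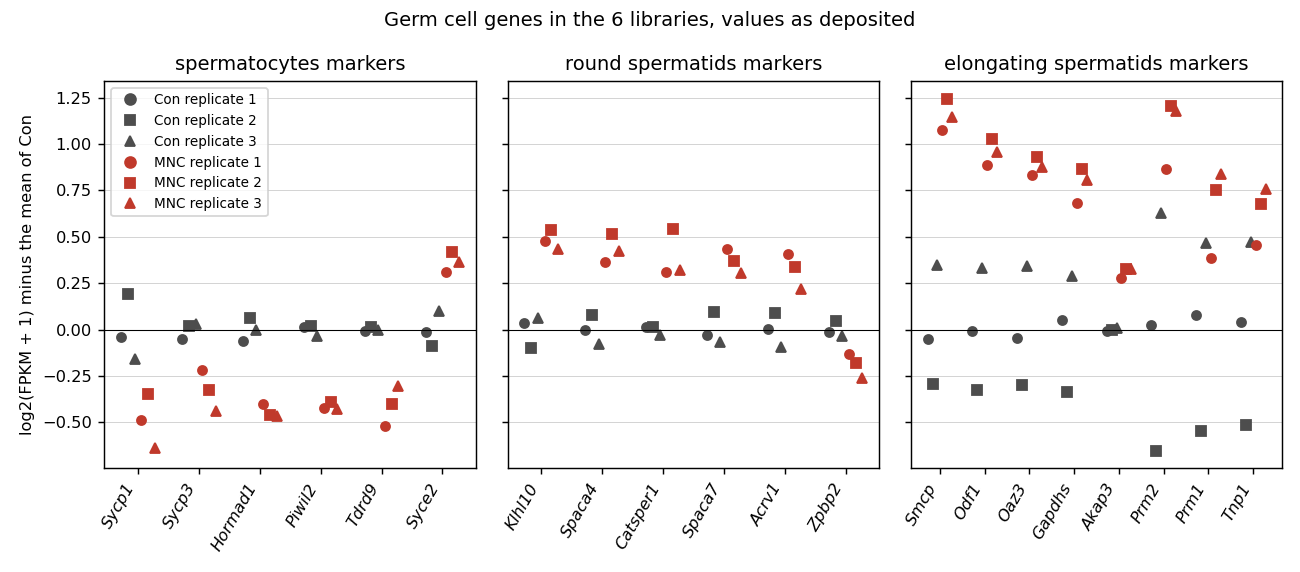
Level of 20 germ cell marker genes in each of the 6 libraries as log2(FPKM + 1) minus the mean of the 3 Con libraries, values as deposited, with grey symbols for Con and red for MNC. Elongating spermatid genes (right) lie higher in MNC, and most of them are lowest in Con replicate 2, while most spermatocyte genes (left) lie lower.

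Round spermatid markers were divided. Of 21 tested, 7 rose and 3 fell as deposited, while 11 rose and 0 fell after centring, with a median of 0.26 and 0.35. The shares as deposited were 33.3% higher and 14.3% lower, against 8.0% and 12.4% of all genes. Klhl10, a ubiquitin ligase adaptor of spermatids, was at 163, 148 and 166 FPKM in Con and 221, 231 and 215 in MNC (log2 difference 0.48, SE 0.06, limma adjusted p = 0.0164). Acrosome genes followed, with Spaca4 at 76.3, 80.5 and 72.3 FPKM in Con against 98.6, 109.5 and 103 in MNC (log2 difference 0.44) and Spaca7 at 80.9, 88.2 and 78.9 in Con against 112, 107 and 102 in MNC (log2 difference 0.37). Catsper1, the pore of the sperm calcium channel, was at 67.8, 67.96 and 65.8 in Con against 83.6, 98.4 and 84.1 in MNC. Catsper2, another subunit of that channel, fell by 0.18 as deposited, at 136, 138 and 139 in Con against 120.2, 124 and 121 in MNC, and was not called after centring (limma adjusted p = 0.259). Dpy19l2, needed for the attachment of the acrosome, and Zpbp2 gave the same result, with falls of 0.23 and 0.19 as deposited. Zp3r, whose product sits in the acrosome matrix, stood apart from the list with 0.34, 0.23 and 0.08 FPKM in Con and 7.55, 38.4 and 65.9 in MNC, and is described with the largest differences below. When Con replicate 1 was left out, limma called 0 of the 21, and 11 higher and 3 lower had an unadjusted p under 0.05.

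Spermatocyte markers were lower on the values as deposited, by small amounts. Of 29 tested, 12 fell and 3 rose as deposited, and 3 fell and 3 rose after centring, so that the balance depended on the scaling. The shares as deposited were 41.4% lower and 10.3% higher, against 12.4% and 8.0% of all genes. The median was -0.26 and -0.17, below that of all genes in both. Hormad1, which marks chromosome axes not yet paired, was at 77.1, 84.1 and 80.2 FPKM in Con and 60.8, 58.2 and 57.9 in MNC, and fell by 0.44 (SE 0.05, limma adjusted p = 0.0158). Piwil2, a protein that silences transposons with small RNAs, was at 47.4, 47.6 and 45.7 in Con against 34.8, 35.5 and 34.6 in MNC (fell by 0.41, SE 0.04). Tdrd9, a helicase of the same pathway, went from 41.4, 42.04 and 41.6 to 28.8, 31.3 and 33.5 FPKM. These 3 were called in both scalings, and their groups lay apart in all libraries. Spo11, the enzyme that cuts DNA to start recombination, had the lowest difference, at 31.4, 25.3 and 33.3 in Con against 19.1, 18.3 and 24.5 in MNC, but was not called after centring (limma adjusted p = 0.12). In the other direction, Syce2, a part of the synaptonemal complex, was at 114, 109 and 124 FPKM in Con and 143, 154 and 149 in MNC (log2 difference 0.36, limma adjusted p = 0.0213), with Rec8 and Syce3 also higher. Of 12 spermatogonial markers tested, 2 fell as deposited, or 16.7%, against 12.4% of all genes. Of these Dazl, an RNA-binding protein that germ cells also carry into meiosis, fell in both scalings, at 59.8, 71.2 and 58.4 FPKM in Con against 47.7, 46.8 and 41.5 in MNC (fell by 0.47). Sohlh1 was the highest of that list, at 3.03, 2.76 and 2.86 in Con against 3.37, 3.51 and 4.5 in MNC, and was not called. With Con replicate 1 removed, limma called 0 of the 29 spermatocyte markers, and 17 lower and 3 higher had an unadjusted p under 0.05.

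Few somatic cell markers were called. Of 24 Sertoli cell markers tested, 4 fell (16.7%, against 12.4% of all genes) and 0 rose as deposited, and 1 fell (4.2%, against 2.9%) after centring, so that these shares were near those of all genes; the median was -0.21 and -0.12. That gene was Inha, the alpha subunit of inhibin, the hormone by which Sertoli cells restrain the pituitary. It was at 101, 103 and 85.5 FPKM in Con and 61.7, 59.5 and 48.9 in MNC, and fell by 0.76 (SE 0.11, limma adjusted p = 0.0177). Sox9, the factor that defines Sertoli cells, was at 5.33, 4.87 and 4.69 in Con against 4.32, 4.18 and 4.79 in MNC, with overlap. Of 15 Leydig cell markers, 2 fell in both scalings: Fdx1, which passes electrons to steroid-making enzymes, at 41.6, 48.3 and 33.6 in Con against 28.6, 27.6 and 25.7 in MNC (fell by 0.56), and Cyb5a at 36.7, 42.5 and 37.2 in Con against 32.1, 30.2 and 30.7 in MNC. Insl3, the most abundant Leydig hormone transcript, was at 993, 1328 and 1052 FPKM in Con and 1519, 1469.9 and 1224 in MNC and was not called. Lhcgr, the receptor for luteinizing hormone, had the lowest difference of the list, at 11.4, 12.4 and 8.85 in Con against 9.13, 6.14 and 4.15 in MNC with overlap. The share of Leydig markers that fell, 13.3%, was near the 12.4% of all genes as deposited and above the 2.9% after centring. Of 10 genes of the contractile myoid cells around the tubules, 3 fell as deposited, or 30.0%. Of these Acta2, smooth muscle actin, fell in both scalings, at 26.2, 25.8 and 23.8 in Con against 18.7, 18.2 and 17.1 in MNC (fell by 0.47). Of 13 endothelial genes tested, limma called 0 as deposited, where 1 had an unadjusted p under 0.05, and 1 after centring, Vwf, at 2.32, 2.04 and 2.6 in Con against 3.72, 3.11 and 2.97 in MNC. Without Con replicate 1, limma called 0 genes of these 4 lists, and at an unadjusted p under 0.05 there were 5 lower Sertoli, 3 lower Leydig, 3 lower myoid and 2 higher endothelial genes, beside 2609 lower and 1592 higher of all 14514 genes.

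Genes of the junctions that form the blood-testis barrier fell in part. Of 17 tested, 7 fell and 0 rose as deposited, and 2 fell and 1 rose after centring, with a median of -0.25 and -0.16. The shares that fell were 41.2% and 11.8%, against 12.4% and 2.9% of all genes. Without Con replicate 2 the median was -0.14 as deposited. Ctnna1, the catenin that ties adhesion complexes to actin, was at 17.3, 17.4 and 14.6 FPKM in Con and 12.2, 12.1 and 10.4 in MNC, and fell by 0.47 (SE 0.09, limma adjusted p = 0.0269). Ctnnd1, another catenin, was at 22.5, 23.4 and 22.8 in Con against 18.2, 19.04 and 17.4 in MNC and fell in both scalings. Gja1, which encodes the gap junction protein connexin 43, was at 22.1, 23.99 and 17.5 in Con against 14.6, 15.9 and 14.2 in MNC, called as deposited (fell by 0.47) and not after centring (limma adjusted p = 0.0642). Cldn11, the main tight junction claudin of Sertoli cells, was at 60.4, 55.03 and 48.8 in Con against 42.4, 43.4 and 41.3 in MNC, with the same outcome. Occludin, encoded by Ocln, was at 2.75, 2.21 and 2.26 FPKM in Con and 1.72, 1.76 and 1.63 in MNC; its groups did not overlap but it was not called (limma adjusted p = 0.05001). Cldn3 had the highest difference, at 18.7, 11.98 and 19.5 in Con against 19.8, 28.6 and 29.9 in MNC, and was not called, while Tjp1, which encodes ZO-1, overlapped at 20.9, 20.3 and 18.7 in Con against 22.03, 20.3 and 18.1 in MNC. When Con replicate 1 was left out, limma called 0 of the 17, and 8 lower and 1 higher had an unadjusted p under 0.05.

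Several groups of genes that most cells use were lower as deposited, and most of these calls were lost after centring. As deposited, 33.3% of cell cycle, 35.3% of proteasome and 26.6% of respiratory chain genes fell, against 12.4% of all genes. Of 24 cell cycle genes, 8 fell and 0 rose as deposited and 3 fell after centring, with a median of -0.20 and -0.11. Tpx2, which builds the spindle, was at 22.2, 22.99 and 22.9 FPKM in Con and 17.5, 17.7 and 17.7 in MNC and fell by 0.35 (SE 0.04, limma adjusted p = 0.0168). Top2a and Aurka were the others called in both. Cdk1, the kinase that starts division, had the lowest difference, at 12.5, 12.9 and 13.3 in Con against 8.36, 9.47 and 9.84 in MNC, and was not called after centring (limma adjusted p = 0.0508). Of 34 proteasome genes, 12 fell and 1 rose as deposited, and 4 fell and 1 rose after centring. Psma8, the subunit that marks the proteasome of spermatocytes, was at 92.5, 112 and 106 FPKM in Con against 77.6, 74.4 and 82.4 in MNC and fell by 0.396 as deposited. Psma6 was the member that rose, at 338, 338 and 364 in Con against 425, 415 and 394 in MNC. Of 64 nuclear genes of the respiratory chain, 17 fell and 0 rose as deposited, and 1 fell and 1 rose after centring, with a median of -0.16 and -0.07. Ndufc2, a complex I subunit, was the one that fell in both, at 43.2, 46.2 and 41.5 in Con against 34.6, 32.8 and 34.98 in MNC. Of 83 cytosolic ribosomal protein genes, which have many near-identical copies, 10 fell and 2 rose as deposited, and 4 fell and 7 rose after centring. Their shares, 12% lower as deposited and 8.4% higher after centring, were near those of all genes, whose balance turned with the scaling in the same way. With Con replicate 1 removed, limma called 0 genes of these 4 lists, and 9, 14, 19 and 13 of them, in the order above, were lower at an unadjusted p under 0.05, beside 2609 of all 14514 genes. The share of the total taken by elongating spermatid genes was higher in each MNC library, as given above, and FPKM values within a library share 1 total; its part in these small decreases was not tested.

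**Figure D4:**
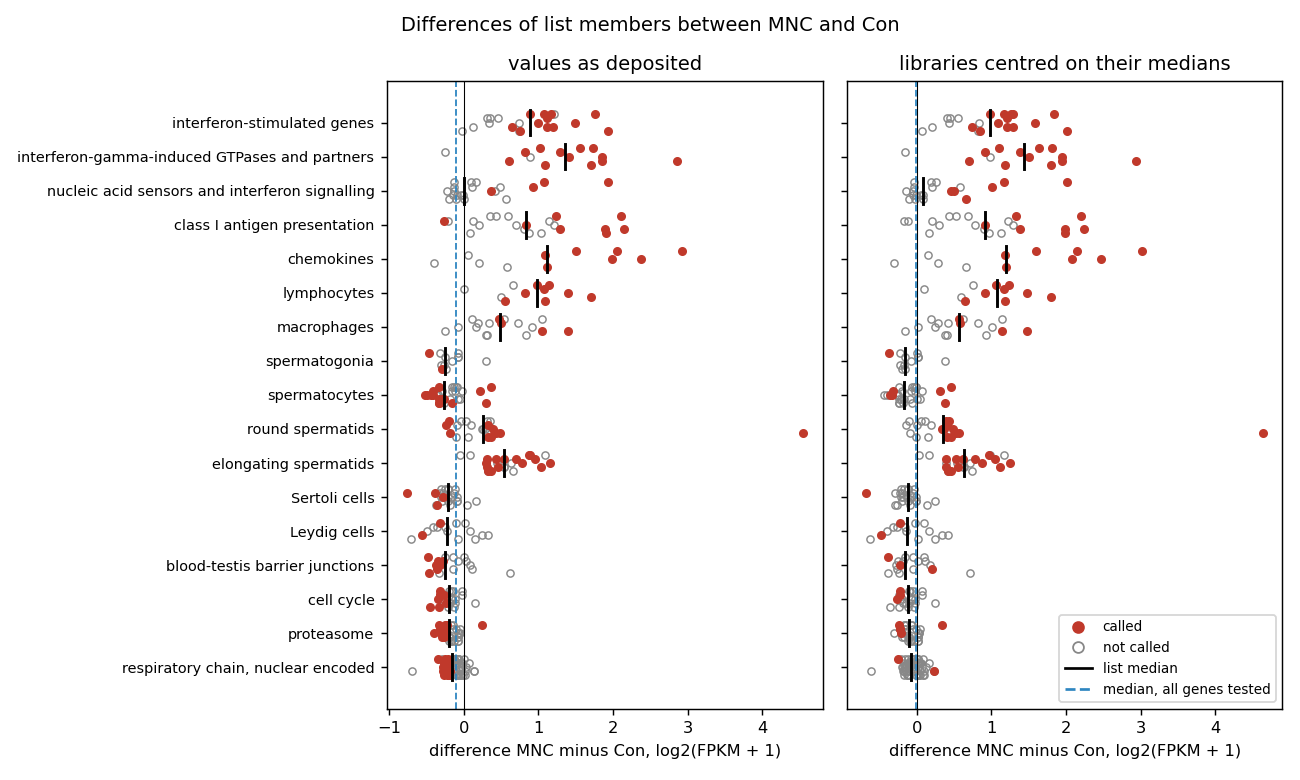
Log2 difference, MNC minus Con, of every tested member of 17 gene lists, as deposited (left) and with libraries centred on their medians (right). Filled red points were called, open points were not, black bars are list medians and the blue dashed line is the median of all genes tested; the lists of interferon-stimulated genes, interferon-gamma-induced GTPases, class I, chemokines and lymphocytes have medians from 0.83 to 1.35 as deposited, while the median of all genes was -0.10.

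Other lists had few calls. Over all genes, 8.03% were called higher and 12.4% lower as deposited, and 9.98% and 2.89% after centring. Of 20 immediate early genes tested, 1 rose and 1 fell as deposited, or 5.0% each. Klf4 was at 49.6, 49.5 and 43.4 FPKM in Con and 60.5, 59.4 and 55.5 in MNC (log2 difference 0.295), and Ccn2 at 15.6, 15.4 and 14.9 in Con against 13.4, 13.4 and 13.02 in MNC. Of 13 chaperones and genes of endoplasmic reticulum stress, Hspa5, the chaperone of that compartment, fell in both scalings, at 238, 249.8 and 238 FPKM in Con against 202, 190.4 and 179.6 in MNC, and Atf4 as deposited. Hspa1l, a chaperone of spermatids, had the highest difference there, at 95.1, 67.5 and 114 in Con against 267, 154 and 142 in MNC, and was not called. Of 18 genes of cell death and p53 targets, Mlkl, which carries out necroptosis and is itself inducible by interferon, rose in both scalings from 3.82, 2.77 and 4.29 to 9.64, 8.91 and 9.38 FPKM (log2 difference 1.17, SE 0.13, limma adjusted p = 0.0158). Trp53 itself had the lowest difference, at 11.4, 11.2 and 11.4 in Con against 9.92, 9.35 and 7.87 in MNC, and was not called. Of 12 complement genes limma called 0 as deposited, where 5 were higher at an unadjusted p under 0.05, and 1 after centring, C7. C3, the central component, was at 10.04, 8.16 and 5 FPKM in Con and 34.5, 14.5 and 15.6 in MNC, without overlap and with an adjusted p of 0.054. Cfb, a partner of C3, had the highest difference of that list, at 0.34, 0 and 0.04 in Con against 4.01, 2.17 and 0.52 in MNC. Of 23 genes of cholesterol synthesis, 3 fell and 1 rose as deposited, with Sc5d at 9.04, 10.8 and 10.3 in Con against 7.01, 6.49 and 5.73 in MNC and Pmvk at 4.82, 5.59 and 5.97 in Con against 8.64, 8.04 and 8.89 in MNC called in both scalings. Of 29 extracellular matrix genes, 2 fell as deposited, of which the laminin gene Lamb1 fell in both, at 6.37, 6.27 and 5.07 in Con against 4.18, 3.64 and 2.9 in MNC. The shares lower as deposited, 13.0% of cholesterol genes and 6.9% of matrix genes, were near or below that of all genes. Of 32 axoneme and cilium genes, 2 rose and 6 fell as deposited and 6 rose and 0 fell after centring, a turn that the calls over all genes also show. Hydin and Ropn1 rose in both. Without Con replicate 1, limma called 0 members of any list in this paragraph, Mlkl included. Of 10 fat cell genes, 0 passed in limma, with 1 at an unadjusted p under 0.05. The 13 protein-coding genes of the mitochondrial genome were not analysed here.

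The largest single differences lay mostly outside these lists. The 10 largest increases and decreases among genes called in both scalings, with at most 2 unnamed genes in each direction, are given here. Coil, which encodes coilin, the scaffold of Cajal bodies in the nucleus, was at 53.2, 51.1 and 56.9 FPKM in Con and 0.96, 0.47 and 1.06 in MNC, and fell by 4.92 (SE 0.14, limma adjusted p = 0.0002). Scpep1, a serine carboxypeptidase encoded next to it, was at 7.1, 8.25 and 6.37 in Con against 0.28, 0.44 and 0.31 in MNC and fell by 2.61 (SE 0.11, limma adjusted p = 0.001). Both had little spread within either group and were near 0 in every MNC library. Zp3r rose by 4.54 (SE 0.71, limma adjusted p = 0.0195), from the values given above, with MNC replicate 1 lowest of the MNC libraries. It was at 10.4, 66.2 and 43.4 FPKM in M1, 7.25, 33.1 and 70.7 in M3 and 0.15, 35.4 and 4.6 in M5, so that M5 replicate 1 was as low as Con. 1700034J05Rik was at 2.73, 2.55 and 2.04 FPKM in Con and 94.9, 38.2 and 50.99 in MNC, and rose by 4.08 (SE 0.32). Kpna2, an importin that carries proteins into the nucleus, was at 1.2, 1.88 and 1.32 in Con and 112, 9.39 and 87.5 in MNC. Eno1, a glycolytic enolase, was at 2.3, 2.4 and 2.79 in Con against 129, 10.04 and 43.95 in MNC, and Pga5, a pepsinogen of the stomach, at 0.09, 0 and 0 in Con against 35.5, 5.48 and 18.3 in MNC. In Kpna2, Eno1 and Pga5 the MNC values spread over a wide range, with MNC replicate 2 the lowest each time. Kpna2 and Eno1 have near-identical copies, and their values are uncertain. Of the unnamed genes that rose, BGI_novel_G001161 was listed at 0 in Con and was at 11.5, 8.45 and 15.96 FPKM in MNC, and BGI_novel_G002171 was at 0, 0.1 and 0 in Con against 78.7, 9.05 and 82.4 in MNC. Of those that fell, BGI_novel_G000543 was at 26.2, 23.8 and 25.9 in Con against 0.53, 9.3 and 1.33 in MNC, and BGI_novel_G001925 at 9.1, 8.91 and 8.92 in Con against 0.14, 0 and 2.51 in MNC. Gm21477, a member of a repeated family on chromosome Y, was at 19.7, 5.03 and 6.4 FPKM in Con and listed at 0 in MNC. Cd74, Ccl8 and H2-Aa complete the increases, and the other 5 decreases are described below with the epididymal and globin genes. Of these 20 genes, 5 were also called without Con replicate 1, namely Coil, Scpep1, Gm21477, Ccl8 and BGI_novel_G001161.

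Coil and Scpep1 were the called pair in a run of neighbouring genes that were all near 0 in MNC. In GRCm38.p6, Scpep1 lies at chr11:88924020-88955442 and Coil at chr11:88973935-88991613. The next 3 genes on that chromosome, chosen after their values were seen, had a mean below the filter. Trim25, a ubiquitin ligase of the RNA sensing pathway, was at 1.96, 2.36 and 2.05 FPKM in Con and 0, 0.03 and 0 in MNC. Dgke, a lipid kinase, was at 1.66, 1.68 and 1.67 in Con against 0.08, 0.09 and 0.08 in MNC, and Gm525 at 1.48, 0.82 and 1.13 and listed at 0 in MNC. Levels were near 0 in the other injected libraries too, apart from M3 replicate 2, where Coil was at 47.6 FPKM, Scpep1 at 5.06, Trim25 at 1.43, Dgke at 1.16 and Gm525 at 1.03. M3 replicate 3 held a trace, with Coil at 4.73. The run of 5 genes spans chr11:88924020-89093064. Akap1, before it, was not near 0, at 2.38, 1.85 and 2.79 FPKM in Con and 3.37, 3.68 and 3.61 in MNC. Beyond it, Nog was at or below 0.06 FPKM in all 15 libraries, and Ankfn1 was at 0.53, 0.62 and 0.79 in Con, 0.26, 0.26 and 0.27 in MNC and 0.71 in M3 replicate 2. Pctp, which follows in the table, was at 5.16, 5.14 and 5.28 FPKM in Con against 5.11, 5.02 and 5.38 in MNC. The low values were thus found in 11 of the 12 injected libraries and in 0 of the 3 Con libraries. The mice were of an outbred stock and their genotype in this region was not analysed here, so the injection and a difference between the mice cannot be told apart.

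Another run, of neighbours among the genes tested, lay on chromosome 4. H6pd, Slc2a5 and Eno1 were all higher in MNC and were ordered alike within MNC. Slc2a5, a fructose transporter, was at 13.5, 13.3 and 11.04 FPKM in Con and 176, 30.8 and 98.98 in MNC (log2 difference 2.604, limma adjusted p = 0.0331), and H6pd, an enzyme of the pentose pathway, at 0.64, 0.58 and 0.59 in Con against 4.65, 1.51 and 2.49 in MNC. MNC replicates 1 and 3 were high and MNC replicate 2 intermediate for all 3 genes. Gpr157, which lies between H6pd and Slc2a5 but below the filter, did not share this, at 0.18, 0.24 and 0.24 FPKM in Con against 0.25, 0.18 and 0.22 in MNC. It too was chosen after its values were seen. In the other injected groups M1 replicate 2, with Slc2a5 at 97.3 and Eno1 at 43.6 FPKM, and M5 replicate 1, with 92.5 and 52.0, were also high, and the M3 libraries were not, with Slc2a5 at 11.1, 11.3 and 10.99. Most other runs of called neighbours with differences of 1 or more were clusters of related immune genes: Gbp7, Gbp3, Gbp2b and Gbp2 on chromosome 3, Ccl2, Ccl7, Ccl12 and Ccl8 on chromosome 11, H2-Ab1 with H2-Aa and H2-T23 with H2-T22 on chromosome 17, and Serpina3f with Serpina3g on chromosome 12. Serpina3g, an inhibitor of cathepsins in T cells, was at 0.09, 0.42 and 0.23 FPKM in Con and 6.47, 2.2 and 3.22 in MNC, and Gbp2b at 0.03, 0.03 and 0.02 in Con against 3.29, 2.14 and 1.24 in MNC; the members of these runs that are in no list were also chosen after their values were seen.

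The remaining large decreases included genes of the epididymis, the duct beside the testis, and of red blood cells. Crisp1, a protein that the epididymis secretes onto sperm, was at 32.3, 2.86 and 12.2 FPKM in Con and 0.03, 0.03 and 0.03 in MNC, and fell by 3.53 (SE 0.72, limma adjusted p = 0.0277). AY761185 was at 8.33, 1.23 and 5.96 in Con against 0, 0.11 and 0 in MNC, and Cuzd1 at 11.3, 6.16 and 5.2 FPKM in Con against 1.64, 1.44 and 1.1 in MNC. Of 6 epididymal genes tested, Crisp1 alone was called. Gpx5, which defines the duct, was at 0.27, 43.3 and 4.64 FPKM in Con and 0.05, 0.14 and 0.02 in MNC and was not called (limma adjusted p = 0.144). Spag11b, another gene of the duct, was at 0.07, 27.2 and 3.41 in Con, listed at 0 in MNC and not called either (limma adjusted p = 0.158). Con replicate 2 held most of Gpx5 and Spag11b, and Con replicate 1 most of Crisp1. Of the 17 genes listed, 11 were at or below 0.05 FPKM in all 3 MNC libraries. The other tested members did not share this pattern throughout: Rnase10 was at 2.32, 3.97 and 2.66 FPKM in Con against 1.34, 2.06 and 1.34 in MNC, Cst8 at 166, 168 and 217 in Con against 224, 223 and 250.2 in MNC and Sult1e1 at 7.83, 12.2 and 23.4 in Con against 17.1, 20.1 and 20.6 in MNC. The 2 last, the members above a mean FPKM of 5, had a median of 0.43, and both were called higher when Con replicate 3 was left out. Summed over the list, FPKM was 210.4 to 276 in Con and 242 to 273 in MNC, with overlap, since Cst8 made up most of it. The part of epididymal transcripts in the other results was not tested. Of the globins, Hba-a1 was at 43.1, 26.6 and 59.96 in Con and 14.9, 13.8 and 14.5 in MNC (fell by 1.45) and Hbb-b2 at 5.64, 4.69 and 9.76 in Con against 0, 1.37 and 1.58 in MNC, while Hbb-bs, a near-identical copy, was at 0, 0.08 and 0.09 in Con against 10.2, 1.53 and 0.49 in MNC. Reads of these copies can be split between genes, and the genotype of these outbred mice was not analysed here, so the opposite directions are uncertain. Alas2, which makes heme in red cells, overlapped between the groups at 9.58, 6.83 and 9.72 in Con against 8.32, 10.2 and 6.78 in MNC.

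The genes of the receptors that the series targets were nearly absent from both groups. Chrm5 was at 0.21, 0.19 and 0.21 FPKM in Con and 0.43, 0.23 and 0.43 in MNC, higher in MNC without overlap (log2 difference 0.18, exact permutation test, two-sided, p = 0.1, the smallest that 3 against 3 libraries allow). Chrm1 was at 0.15, 0.09 and 0.15 FPKM in Con against 0.1, 0.11 and 0.11 in MNC (exact permutation p = 0.4), and Chrm3 at 0.04, 0.05 and 0.04 in Con against 0.05, 0.01 and 0.05 in MNC (exact permutation p = 1.0). With 3 against 3 libraries this test cannot reach 0.05. Chrm4 was the one gene of the 9 cholinergic genes listed to pass the filter, at 2.91, 2.75 and 3.09 FPKM in Con and 4.45, 5.01 and 5.1 in MNC. It rose by 0.58 (SE 0.08, limma adjusted p = 0.0174) and was called in both scalings, but not without Con replicate 1. In the other injected groups Chrm4 was at 3.25, 2.99 and 4.44 in M1, 3.97, 4.06 and 2.67 in M3 and 2.24, 2.05 and 2.29 in M5.

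Base composition moved with the direction of the calls. With genes split into 4 equal bins of GC content, from the lowest to the highest, the median log2 difference was -0.13, -0.11, -0.08 and -0.06 as deposited. Calls were 210 higher and 575 lower in the lowest bin, and 307 higher and 276 lower in the highest. With the trend of each library with GC content removed, 1529 genes were called higher and 838 lower. Removing this trend also removed the level of each library, as centring does. These counts therefore stand beside the 1449 higher and 420 lower after centring. Of the 20 largest differences, the 15 with known GC content were all still called.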

How the data were processed

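Messenger RNA of testis, selected with oligo(dT), was sequenced on an Illumina instrument, and reads were aligned with SOAPaligner by the authors, who deposited 1 table of FPKM values for 15 libraries, rounded to 2 decimals, with 23510 gene IDs, of which 21143 (89.9%) matched a RefSeq symbol. The 14514 genes (845 of them unnamed IDs) whose FPKM averaged at least 1 over all 15 libraries were tested on log2(FPKM + 1) with limma 3.58.1 in R 4.3.3 (lmFit and eBayes with trend, MNC and Con libraries only, no block), as deposited and with each library centred on its median, with Benjamini-Hochberg adjustment and calls at an adjusted p under 0.05. The study's own test on read counts was not repeated, since no counts were used here. The 3 receptor genes were tested by exact permutation. Named genes were the 10 largest differences in each direction called in both scalings without overlap (at most 2 unnamed), members of the gene lists, led by the largest differences, and Chrm1, Chrm3 and Chrm5. The comparison and the lists were chosen with earlier results of these data known. Scripts were tested on simulated data. GC content was known for 13364 tested genes (92.1%). Promoters came from RefSeq tables of GRCm38.p6, and the submitters' processing notes name mm10. Alternatives were other pseudocounts, filters, normalizations, fits and libraries left out. A gene of the lists is counted but not reported here by name.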

Additional observations from a re-analysis of the deposited data

How the results depend on the processing

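The count of called genes, 2967 as deposited, was 1740 with no filter on mean FPKM, 1869 after centring and 2 at the study's threshold (adjusted p under 0.001 and a log2 difference of 1 or more), and it lay between 2335 and 3125 with a pseudocount of 0.1, filters of 0.1 or 5, quantile normalization, no trend, all 5 groups in 1 fit or the GC trend removed. Leaving out 1 library gave 8 to 2497 calls as deposited and 12 to 1565 after centring. The share of calls that were higher in MNC, 39.3% as deposited, was 77.5% after centring, 44.0% with a filter of 0.1, 36.7% with a filter of 5, 48.0% with quantile normalization, 43.5% with all 5 groups in 1 fit, 64.6% with the GC trend removed, 50% at the study's threshold and 42.9% to 80.5% with 1 library left out. The fit with the GC trend removed also took out the level of each library, as centring does. After centring, the share of 77.5% was 58.8% with a filter of 5 and 75.0% to 92.6% with 1 library left out. Apart from the smaller samples of the fits with a library left out, the cause of these changes was not tested.

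The replicate numbers were not found to pair libraries: deviations from the group means of same-numbered libraries correlated at 0.06, -0.14 and 0.05 across genes, and not every library correlated best with its own number. A fit with the replicate number as a block, which leaves fewer degrees of freedom, called 10 genes as deposited (80.0% higher) and 237 after centring (93.7% higher), and 5 of the 20 genes with the largest differences.

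None of the 20 genes with the largest differences changed sign under the alternatives run. The balance of calls did, as given above. List medians that changed sign were those of the epididymis list, -1.48 and 0.43 with a filter of 5, of immediate early genes, -0.09 and 0.11 with a filter of 5, and of fat cell genes, 0.10 and -0.25 without Con replicate 3. After centring, the medians of extracellular matrix and Leydig cell genes, -0.09 and -0.13, became 0.04 and 0.02 without MNC replicate 3. The medians of 6 further lists, between -0.04 and 0.02 (sensors, cell death, endothelial, red blood cell, axoneme and ribosomal protein genes), also crossed 0. For the 20 genes, 161 of the 207 values under alternatives other than leaving out a library stayed past the threshold, and 73 of 120 with a library left out did. FPKM does not give depth, and no floor or interval was set for low genes.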

Other observations

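Hmga1 and Hmga1b, near-identical copies of a chromatin protein gene, differed in opposite directions, with reads that the counting may share between them: Hmga1 was at 23.2, 24.98 and 20.9 FPKM in Con and 9.35, 19.4 and 22.3 in MNC, and Hmga1b at 0.66, 1.68 and 0.83 in Con against 37.2, 7.29 and 4.92 in MNC. Eno1b, a copy of Eno1, was at 0.54, 0.13 and 0.31 FPKM in Con and 2.02, 0.56 and 3.97 in MNC. Among ribosomal protein genes, Rps18 had the highest difference, at 5.76, 6.32 and 6.86 FPKM in Con and 155, 34.1 and 10.2 in MNC, and Rps6 the lowest, at 4.88, 4.42 and 4.48 in Con against 1.76, 2.73 and 1.56 in MNC. The genes named in this paragraph, apart from the ribosomal protein genes, were chosen after their values were seen.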
